A study of Homo sapiens with 20 samples.

Results

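The Iroquois homeobox family comprises 6 human genes, IRX1 to IRX6, and their RNA was followed here in neural progenitor cells differentiating into neurons. Members were taken as the coding gene records that carry an IRX symbol, and each symbol had 1 such record, so the set holds 6 of the 20237 coding records and 38369 records in all. They came from the H1 line of human embryonic stem cells, a long-used cell line, and were differentiated by withdrawal of FGF, a mitogen of progenitors, together with BDNF, which favours neuronal survival. No other genotype or treatment entered the series. The labels give 20 samples, which are 2 for day 5 and 3 for each of days 0, 1, 2, 4, 11 and 18. Those of days 5, 11 and 18 had been replated at day 4 on another surface. The files hold 1 pooled expression value per gene and day, over the cultures of that day. Its unit is FPKM, a fragment count divided by transcript length and library size. With 1 value per day there is no spread between cultures to set a difference against. No test was made, and the read depth behind each value is unknown.

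Iroquois proteins are transcription factors of the TALE class, whose homeodomain carries an extra loop of amino acids and which often bind DNA together with other TALE proteins such as PBX and MEIS factors. They were first studied in the fly, where Iroquois genes pattern the sensory bristles and the eye, and in vertebrates they divide the early neural plate, hindbrain, midbrain and spinal cord into domains. Mammals carry them in clusters on separate chromosomes that arose by duplication, so that IRX1 pairs with IRX3, IRX2 with IRX5 and IRX4 with IRX6 in sequence and in order along the chromosome.

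In the hg19 assembly used by the authors, IRX4, IRX2 and IRX1 lie in this order on chromosome 5 and IRX3, IRX5 and IRX6 on chromosome 16. The record of IRX4 spans 1877541 to 1882880, that of IRX2 2746281 to 2751769, both on the minus strand, and that of IRX1 3596168 to 3601516 on the plus strand. On chromosome 16, IRX3 spans 54317212 to 54320378 on the minus strand, IRX5 54965111 to 54968393 and IRX6 55358471 to 55364671, both on the plus strand. The genes are small, between 3167 and 6201 bases long, and far apart. The gaps were 863.4 kb between IRX4 and IRX2, 844.4 kb between IRX2 and IRX1, 644.7 kb between IRX3 and IRX5, and 390.1 kb between IRX5 and IRX6.

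For the chromosome 5 genes, the RefSeq table used here gives the promoter, 250 bases before the transcription start and 50 after it, in the GRCh38.p14 build. The 3 sequences are shown because they belong to the most abundant member at day 0 (IRX2), the least abundant (IRX4) and IRX1 between them. Capitals mark matches on either strand to CAGCTG (an E-box), CCAAT (the CCAAT box) and GGGCGG (a GC box). Overlapping GC boxes were each counted.
IRX1, chromosome 5, 3595582 to 3595881, plus strand: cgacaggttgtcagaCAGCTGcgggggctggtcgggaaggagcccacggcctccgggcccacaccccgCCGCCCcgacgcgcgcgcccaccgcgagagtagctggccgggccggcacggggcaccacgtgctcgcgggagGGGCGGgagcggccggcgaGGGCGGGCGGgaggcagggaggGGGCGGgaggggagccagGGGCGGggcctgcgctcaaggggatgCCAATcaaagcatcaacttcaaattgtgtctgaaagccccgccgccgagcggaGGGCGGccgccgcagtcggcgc
IRX2, chromosome 5, 2751628 to 2751927, minus strand: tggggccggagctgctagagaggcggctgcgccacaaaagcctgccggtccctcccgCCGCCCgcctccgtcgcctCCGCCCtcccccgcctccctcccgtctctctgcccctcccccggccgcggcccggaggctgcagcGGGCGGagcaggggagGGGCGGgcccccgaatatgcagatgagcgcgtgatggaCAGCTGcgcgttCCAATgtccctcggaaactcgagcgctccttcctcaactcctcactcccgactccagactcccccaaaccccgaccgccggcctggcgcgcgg
IRX4, the first listed of 3 starts, chromosome 5, 1886896 to 1887195, minus strand: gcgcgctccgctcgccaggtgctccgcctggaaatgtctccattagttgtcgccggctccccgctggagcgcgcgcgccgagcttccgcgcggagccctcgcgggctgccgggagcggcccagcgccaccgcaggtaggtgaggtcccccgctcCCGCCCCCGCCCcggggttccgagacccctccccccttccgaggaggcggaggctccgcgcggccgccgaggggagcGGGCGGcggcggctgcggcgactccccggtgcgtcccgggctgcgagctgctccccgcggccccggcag

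The promoters of IRX1 and IRX2, genes with a known part in early neural patterning, shared motifs that the IRX4 sequences lacked. Each held 1 CAGCTG and 1 CCAAT, while none of the 3 listed IRX4 sequences held either. Among all 35116 promoters in the table, 17.9% held CAGCTG and 34.6% CCAAT. GC boxes were counted 7 times in IRX1, 4 times in IRX2 and 3 times in the IRX4 sequence shown, and 45.0% of all promoters held at least 1. Neither TATAAA (the TATA box, in 11.5% of promoters) nor ACANNTGT (a palindrome bound by Iroquois proteins, in 5.62%) occurred in any of them. All 3 sequences shown were rich in CpG, with 38 CpG pairs in IRX1, 34 in IRX2 and 47 in IRX4 against a median of 14 over all promoters. The second of the 3 listed IRX4 starts (1882876 to 1883175), not shown, lies nearest the 1882880 end of the measured record, although the builds differ. That sequence held 0 GC boxes and 36 CpG pairs. The motif matches are letters in a window and were not measured as binding. IRX3, IRX5 and IRX6 had no entry.

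The family was already transcribed in the progenitors at day 0. IRX2 had the highest level, 33.1 FPKM, followed by IRX1 at 16.5, IRX5 at 15.3 and IRX3 at 10.0. IRX6 and IRX4 were far lower, at 0.567 and 0.0955 FPKM. By day 18 the order was IRX5, IRX1, IRX2, IRX3, IRX4 and IRX6, so IRX2 had moved from the top to below IRX1. Whether neighbours in either order differ beyond the spread between cultures cannot be said, because the files give no such spread.

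**Figure D1:**
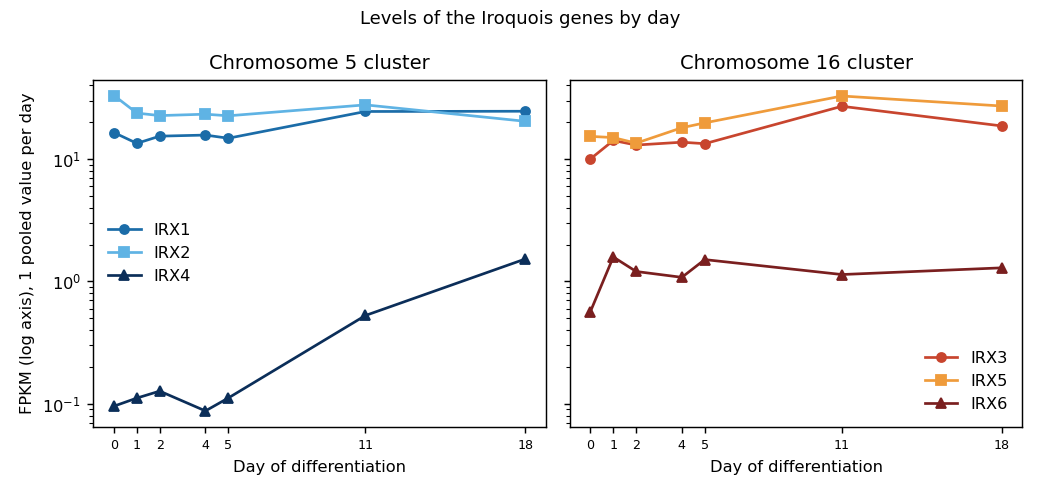
FPKM (log axis, 1 pooled value per day, no error bars available) of each Iroquois gene against the day of differentiation, with the chromosome 5 genes on the left and the chromosome 16 genes on the right. IRX4 lies near 0.1 FPKM up to day 5 and reaches 1.53 at day 18, IRX6 differs most between days 0 and 1, and IRX1, IRX2, IRX3 and IRX5 stay between 10.0 and 33.1 FPKM on every day.

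On the chromosome 5 side, IRX1 marks parts of the early neural tube and, later, lung and limb. Its values over the 7 days, in order, were 16.5, 13.5, 15.4, 15.7, 14.8, 24.5 and 24.6 FPKM. The gene thus had a low plateau up to day 5 and a higher one at days 11 and 18, with 1.65 times as much at day 11 as at day 5. IRX2, its neighbour, had 33.1, 23.8, 22.7, 23.3, 22.6, 27.8 and 20.4 FPKM over the same series. As deposited, IRX2 was highest at day 0, lower by day 1 and lowest at day 18, when the day 0 level was 1.63 times as high. The days of its peak and trough depend on the scaling. On the TPM scale, which rescales each value by the day's summed FPKM, IRX2 was highest at day 11 (86.9) and lowest at day 2 (59.4). On that scale it stood at 80.0 on day 0 and 81.1 on day 18.

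IRX4, best known as a factor of the heart ventricle, was the member with the widest range. Its level was between 0.0873 and 0.127 FPKM on days 0 to 5, then 0.526 at day 11 and 1.53 at day 18. The day 18 value was 15.98 times that of day 0, although the day 0 value lies under 0.1 FPKM, where the fold rests on very little signal. Markers of heart and kidney, organs in which Iroquois genes also act, had a summed level of 1.25 FPKM at day 0 and 0.573 at day 18 over 7 genes. At day 18 most of it came from the atrial peptide gene NPPA (0.282) and from a record that merges the kidney gene SLC12A1 with CTXN2 (0.187). TNNT2, the cardiac troponin T gene, stood at 0.0159 FPKM, the atrial light chain gene MYL7 at 0.0199 and the kidney gene UMOD at 0.00876. TNNT2 had been at 0.207 on day 0.

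Of the chromosome 16 genes, IRX3 is expressed broadly in spinal cord progenitors, where it helps set the border of the motor neuron domain. It measured 10.0, 14.2, 13.0, 13.7, 13.4, 27.0 and 18.7 FPKM. It was highest at day 11, at 2.69 times day 0 and 2.02 times day 5, and lower again at day 18. IRX5, known for its part in the gradient of cardiac repolarization and in the retina, measured 15.3, 15.0, 13.5, 18.1, 19.8, 32.8 and 27.2 FPKM. Each value from day 4 to day 11 was above the one before, day 11 stood at 2.14 times day 0, and IRX5 was the most abundant member at days 11 and 18.

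IRX6, a factor of retinal bipolar cells, had values of 0.567, 1.58, 1.21, 1.08, 1.51, 1.14 and 1.29 FPKM. Day 0 stood alone: from day 1 on the gene stayed between 1.08 and 1.58, and its day 1 value was 2.79 times that of day 0. The difference therefore fell in the first day after FGF withdrawal, in which several other genes also differed. HES5, a Notch target of progenitors, went from 1.95 to 14.2 FPKM over that day, while the summed FPKM of the 6 proliferation markers went from 633 to 338. Their part in the IRX6 values was not tested.

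Changes were next set against those of all coding genes. A change is given as the difference in log2(FPKM + 0.1), which understates the change of low genes, and a gene was counted where it differed at least 2-fold on that scale. From day 0 to day 18, 2 of 6 members were at least 2-fold higher, IRX4 (log2 difference 3.06) and IRX6 (1.06), and 0 were at least 2-fold lower. Among the 14107 coding records with a mean of at least 0.1 FPKM, 10.6% were at least 2-fold higher and 28.2% at least 2-fold lower. All 6 members passed that minimum. IRX3, IRX5 and IRX1 were higher by 0.89, 0.82 and 0.58, and IRX2 was the member with a lower value at day 18 (-0.70). At day 11 against day 0, 3 members were at least 2-fold higher, IRX4, IRX3 and IRX5, and 0 lower, against 10.2% and 15.7% of coding records.

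The scale of the FPKM values moved between these days. Expressed records, those with a mean of at least 1 FPKM, had a median log2 difference of -0.56 between day 0 and day 18. Relative to that median, 5 of 6 members were at least 2-fold higher and 0 lower, against 18.5% and 12.7% of coding records: IRX4 by 3.62, IRX6 by 1.62, IRX3 by 1.45, IRX5 by 1.38 and IRX1 by 1.14. IRX2 stood at -0.14 on this scale and at 0.02 after division by the day's summed FPKM, so its direction depends on the scaling. The other members were higher at day 18 under each of these scalings. In bulk RNA, fewer cells of a type and less RNA per cell cannot be told apart.

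**Figure D2:**
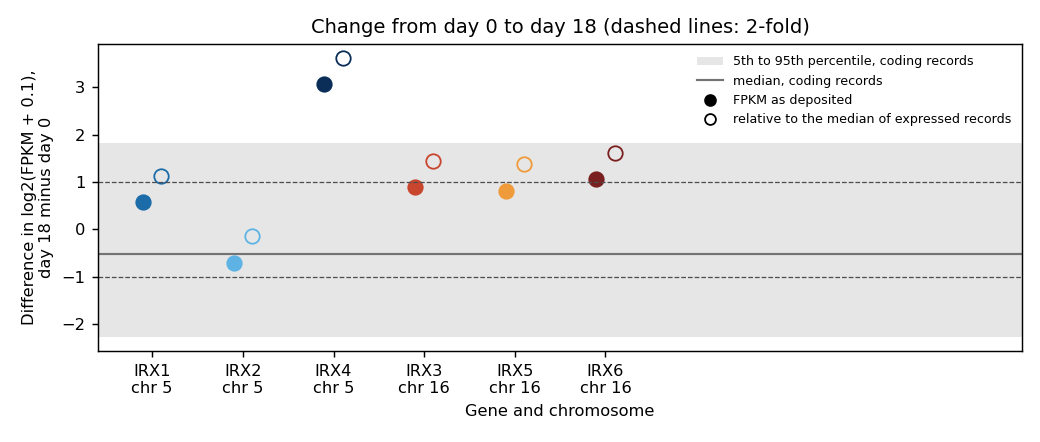
Difference in log2(FPKM + 0.1) between day 18 and day 0 for each Iroquois gene, as deposited (filled) and after subtracting the median shift of expressed records (open); the grey band and line give the 5th to 95th percentile and the median of 14107 coding records as deposited (-2.27, 1.82 and -0.52). As deposited, IRX4 (3.06) lies above the band, the other genes lie inside it, and IRX2 (-0.70) is the gene below 0.

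Over the 6 steps between adjacent days, members were at least 2-fold higher 4 times and at least 2-fold lower 0 times. The first was IRX6 from day 0 to day 1 (log2 difference 1.34), a step at which 4.61% of coding records were at least 2-fold higher and 3.68% lower. From day 5 to day 11 both IRX3 (1.01) and IRX4 (1.57) passed that line, against 2.56% of coding records higher and 4.57% lower. IRX1 and IRX5 were higher by 0.72 and 0.73 at this step, each close to the 95th percentile of all coding changes. IRX4 passed the line again from day 11 to day 18 (1.38, background 1.66% higher and 3.54% lower), while IRX3, IRX2 and IRX5 had lower values there (-0.53, -0.44 and -0.27). Expressed records had a median of -0.28 at this last step. Relative to that median, IRX3 stood at -0.26, IRX2 at -0.17 and IRX5 at 0.0048, so the lower IRX5 value matched the general shift. Between days 1 and 5, replating included, no member differed 2-fold. Few coding records did so: 0.269% were higher and 0.298% lower from day 1 to day 2, 0.184% and 1.11% over the step to day 4, and 0.432% and 0.106% over the step to day 5. The largest differences among members were those of IRX6 after replating (0.45) and of IRX5 between days 2 and 4 (0.42).

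**Figure D3:**
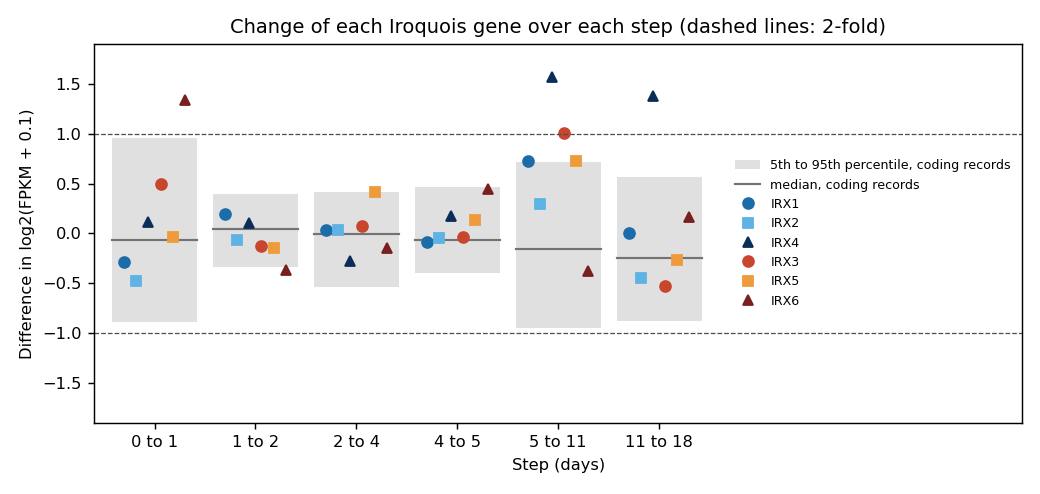
Difference in log2(FPKM + 0.1) of each Iroquois gene at each step between adjacent days, with the 5th to 95th percentile (grey band) and median (grey line) of 14107 coding records and dashed lines at 2-fold. IRX6 at the first step and IRX3 and IRX4 at the step from day 5 to day 11 lie above both the band and the upper dashed line, as does IRX4 at the last step.

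The clusters were compared by their summed levels, which FPKM allows because it is per length. The summed FPKM of IRX1, IRX2 and IRX4 was 49.7, 37.3, 38.2, 39.1, 37.5, 52.8 and 46.5 over the 7 days, and that of IRX3, IRX5 and IRX6 was 25.9, 30.8, 27.7, 32.9, 34.7, 61.0 and 47.1. The chromosome 5 cluster was ahead up to day 5, the chromosome 16 cluster was ahead at day 11, and the sums were near each other at day 18. As a share of the family's sum, chromosome 16 held 34.3% on day 0 and 45.2% on day 1. On day 5 the share was 48.0%, on day 11 53.6% and on day 18 50.3%. This share does not depend on how a day is scaled, but it is open to the overlap with records on the other strand that is described below.

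In log2 terms the chromosome 16 sum was 0.86 higher at day 18 than at day 0 and the chromosome 5 sum differed by -0.09, a gap of 0.95. Against the median shift of expressed records, these became 1.42 and 0.46, so the direction of the chromosome 5 sum turned with the scaling. Neither sum differed 2-fold at day 18 as deposited. At day 11 against day 0, the chromosome 16 sum was 1.23 higher as deposited, past 2-fold, and the chromosome 5 sum 0.09 higher. The clusters were not uniform inside: on chromosome 5 IRX2 and IRX4 went opposite ways as deposited, and on chromosome 16 IRX5 alone made up 29.0% of the family's sum at day 18 and IRX6 1.38%.

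**Figure D4:**
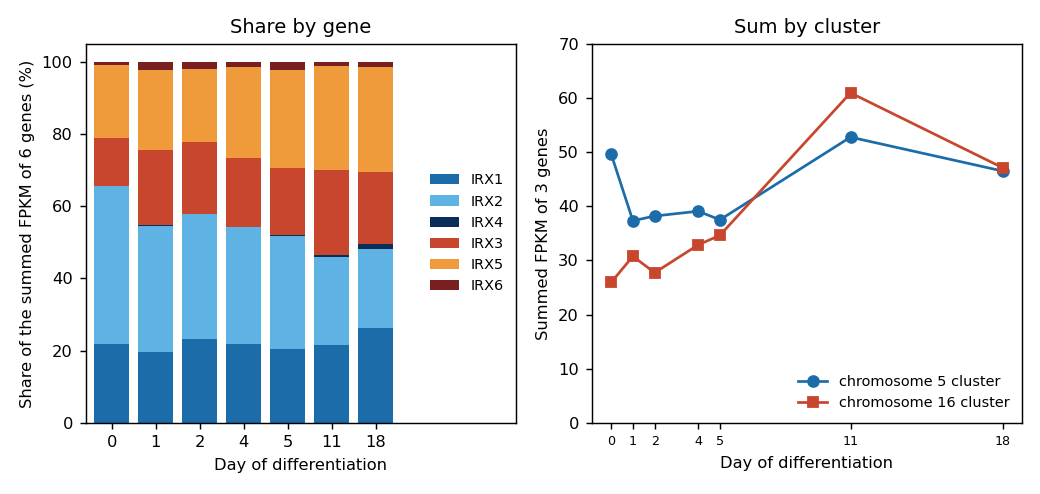
Left, the share of each Iroquois gene in the summed FPKM of all 6 by day (stacked bars, blue for chromosome 5 and red to orange for chromosome 16); right, the summed FPKM of each cluster by day, without error bars because each day has 1 pooled value. The chromosome 16 share is 34.3% on day 0, 53.6% on day 11 and 50.3% on day 18.

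Between paired genes of the clusters the balance moved in different directions. IRX5 had 0.463 times the level of IRX2 at day 0 and 0.875 times at day 5, then 1.18 times at day 11 and 1.33 times at day 18, so that the chromosome 16 copy passed the chromosome 5 copy between days 5 and 11. The ratio of IRX3 to IRX1 was 0.609, 1.06, 1.10 and 0.758 on days 0, 1, 11 and 18, without a steady trend. The ratio of IRX6 to IRX4 went the other way, from 5.94 on day 0 and 14.2 on day 1 to 0.846 by day 18. Its early values divide by IRX4 at 0.0955 FPKM on day 0 and 0.111 on day 1, so they rest on very little signal.

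Profiles were also compared across the 7 days by the Pearson correlation of log2 values, which is given as a description because all genes of a day share its libraries and scaling. Genes with like profiles were found within and between clusters. IRX1 and IRX4, on chromosome 5, had r = 0.90, and IRX3 and IRX5, on chromosome 16, had 0.88. Across clusters, IRX1 and IRX5 had 0.88 and IRX1 and IRX3 0.77. IRX2 had negative values with each other member as deposited, from -0.01 with IRX1 to -0.81 with IRX6. Once each day was set against the median of expressed records, these were 0.62 with IRX1, 0.43 with IRX3, 0.50 with IRX4 and 0.56 with IRX5, and -0.31 with IRX6, so all but the last turned with the scaling.

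Among 11792 other expressed coding records, the profiles nearest to IRX1 were those of RSBN1 (r = 0.99), EVL, CACNG4, FXYD6 and FAM89A. The nearest to IRX2 were PDS5B (0.997), a cohesin regulator, DAPK1, RASSF2, HMGB3 and GAS2L3. Relative to the median of expressed records, DAPK1 and GAS2L3 had lower r with IRX2, 0.79 and 0.81, and the others at least 0.92. The nearest to IRX3 were GSX1 (0.99), GDF11, PBX4, MKRN3 and ZNF711. GSX1, a homeobox gene of dorsal spinal progenitors, had 0.328, 9.01 and 3.52 FPKM on days 0, 11 and 18. IRX5 was nearest to ZNF385D (0.997), MEIS2 (0.99), FGD4, GSTA4 and a record that merges TLE1 and TLE4. MEIS2, itself a TALE homeobox gene, had 14.0, 23.4 and 20.4 FPKM at days 0, 11 and 18. IRX6 had less close neighbours, GAS6 at 0.96 followed by FBXL20, PXK, ROGDI and C9orf9. All of these were picked as the highest of 11792 values over few days, so high r is in part a matter of selection.

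Transcripts on the other strand touch several members. The authors' catalogue places long intergenic noncoding RNA (lincRNA) records across both clusters, 20 within 100 kb of the chromosome 5 span and 6 around the chromosome 16 span. Only 2 and 3 of them, respectively, averaged at least 0.1 FPKM. Of these, linc-IRX5-AS, which overlaps the lncRNA gene CRNDE of GENCODE release 44, was by far the most abundant. It had 27.9, 43.2, 41.0, 45.6, 44.3, 66.2 and 52.5 FPKM, above IRX5 on every day and, like IRX5, highest at day 11 as deposited.

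The overlap bears on the values of the members themselves. The linc-IRX5-AS record covers 100% of the exon bases of IRX5, linc-IRX3-AS 70.4% of those of IRX3 and linc-IRX6-AS 22.2% of those of IRX6, each on the other strand. The default options of the authors' programs take reads as unstranded, so reads from a member and from its partner cannot be told apart there, and the values of IRX3, IRX5 and IRX6 are uncertain to that extent. The same holds for IRX4, whose partner is given below. No lincRNA record shares exon bases with IRX1 or IRX2. The uncertainty therefore falls mostly on the chromosome 16 side. It reaches the sum and share of that cluster and the ratios of IRX5 to IRX2 and of IRX3 to IRX1.

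Despite its large overlap, linc-IRX3-AS was low, with 0.694, 1.08 and 0.706 FPKM on days 0, 11 and 18. linc-IRX6-AS had 0.0267 FPKM at day 0 and 0.263 at day 1, the same step at which IRX6 differed. Over the 7 days the correlation with the overlapped member was 0.79 for linc-IRX5-AS, 0.72 for linc-IRX3-AS and 0.83 for linc-IRX6-AS, between records that share exon bases. linc-IRX4-AS, named here after its values were seen because it covers 100% of the exon bases of IRX4, had 0.0147 FPKM at day 0 and 0.232 at day 18, with r = 0.98 to IRX4. With a mean of 0.0621 FPKM, linc-IRX4-AS was under the minimum. The chromosome 5 records above it were linc-MRPL36-AS (0.278 FPKM at day 0, 0.246 at day 18) and linc-ADAMTS16-7, 10.6 kb from IRX1 (0.556 and 0.431).

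**Figure D5:**
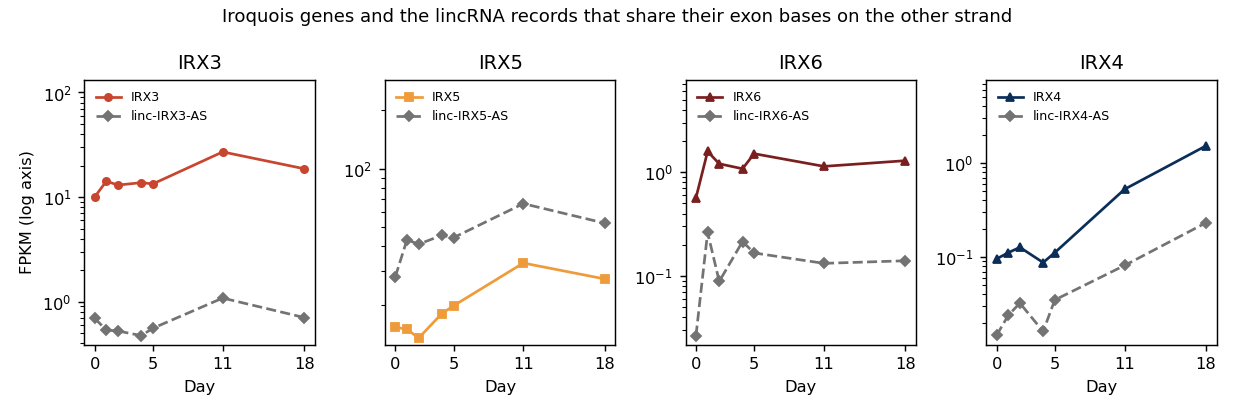
FPKM (log axes, each panel with its own range, 1 pooled value per day) of IRX3, IRX5, IRX6 and IRX4 and of the lincRNA record that shares exon bases with each on the other strand (grey, dashed). The lincRNA record lies above the coding gene for IRX5 (52.5 against 27.2 FPKM at day 18) and below it for IRX3, IRX6 and IRX4.

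The other TALE homeobox genes listed all passed the minimum of 0.1 FPKM. Whether any of them acts with Iroquois proteins in these cells was not tested. Of 12 genes, 1 was at least 2-fold higher at day 18 and 4 were at least 2-fold lower, with a median log2 difference of 0.12 against -0.52 over all coding records, of which 10.6% were higher and 28.2% lower. Relative to the median of expressed genes the TALE counts were 4 higher and 0 lower, so their balance turned with the scaling. PBX3 went from 35.2 to 109 FPKM, while PKNOX2 went from 7.90 to 2.69 and TGIF2, in a record merged with another gene, from 80.6 to 33.6.

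Factors of the territories that Iroquois genes help to divide were mostly low, but not all. GBX2, PAX3, TCF7L2 and EN2, named here after their values were seen, had 51.9, 31.0, 27.1 and 22.2 FPKM at day 0. At day 18 their levels were 18.8, 27.9, 9.06 and 7.84 FPKM. The counts of each list at day 18 stand against the same 10.6% of coding records higher and 28.2% lower. Relative to the median these shares were 18.5% and 12.7%. The minimum is a mean over all days, so a factor that is low at day 0 can pass it through late values. PAX2 and ISL1, among others counted as higher below, were under 0.1 FPKM on days 0, 1 and 2. Such counts in part follow from the filter. The same minimum applied to all coding records. Of 12 rostral forebrain factors, 7 were below 0.1 FPKM on every day, among them OTX2. Of the 5 that passed the minimum, 4 were at least 2-fold higher at day 18 and 0 lower (median 1.37), with SIX3 at 0.174 and 1.74 FPKM, FEZF1 at 0.337 and 1.30, and HESX1 at 0.502 and 0.219 at days 0 and 18. Of 8 measured factors of thalamus, midbrain and isthmus, 3 were higher and 5 lower (median -1.48), or 3 and 3 relative to the median, with LMX1B at 1.19 and 21.1, PAX2 at 0.525 on day 18 and listed at 0 on day 0, EN1 at 2.49 and 0.140, and PAX5 at 3.48 and 0.523. Of 10 spinal progenitor factors, 5 were higher and 2 lower (median 0.68), or 5 and 1 relative to the median, among them GSX1 and PAX7 (0.697 and 2.55) against MSX2 (0.645 and 0.0368) and DBX1 (0.260 and 0.0534). In the V2 and motor neuron list, which holds fates that IRX3 helps to separate, 4 of 10 passed the minimum, 2 higher and 1 lower (median 0.90): ISL1 had 0.00461 and 0.528 FPKM, VSX1 0.0517 and 0.510, GATA2 0.260 and 0.211, and the record that merges TAL1 with STIL, a gene of dividing cells, 12.4 and 1.66.

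Cell type markers were read against the same shares of coding records, and their part in the Iroquois values was not tested. All 8 neural progenitor markers were present, with a summed FPKM of 789 at day 0 and 354 at day 18 (1 at least 2-fold higher, 2 lower, median -0.52, the last equal to that of all coding records), or 1 and 1 relative to the median, including HES5 at 1.95 and 20.0, NES at 513 and 180 and PROM1 at 38.8 and 5.06. Of 8 neuronal markers, 7 were higher and 0 lower (median 2.03, sum 360 and 1305), STMN2 at 32.3 and 727, ELAVL4 at 0.149 and 4.89 and GAP43 at 193 and 173. All 6 proliferation markers were lower (median -2.60), such as AURKB at 74.1 and 8.41 and BUB1 at 38.2 and 4.98, with a sum of 123 at day 18.

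Day 0 also held transcripts that serve as markers of other cell types, and which cells made them was not tested. In the mesenchymal and neural crest list, 6 of 9 passed the minimum, 1 higher and 5 lower (median -2.34), or 1 and 4 relative to the median, and the sum went from 643 to 57.8 FPKM. TAGLN had 367 and 19.4 FPKM, COL1A2 33.6 and 3.81 and TFAP2A 0.0415 and 2.67, the crest markers SOX10 and FOXD3 had 0.0472 and 0.00617 at day 0 and COL1A1 was listed at 0 on every day. Of 7 glial markers, 4 passed the minimum, 0 higher and 3 lower at day 18 (median -1.03), or 0 and 0 relative to the median, with MBP at 0.326 and 0.107 and CSPG4 at 0.562 and 0.138. Of 7 heart and kidney markers, 2 passed the minimum, 0 higher and 1 lower (median -0.52), or 0 and 0 relative to the median. NPPA was at 0.913 and 0.282, and the record that merges SLC12A1 with CTXN2 was at 0.121 and 0.187.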

How the data were processed

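Polyadenylated RNA of the 20 cultures was sequenced as paired-end reads from TruSeq libraries. The authors used TopHat2 for alignment to hg19, Cufflinks for assembly and Cuffdiff2 for FPKM, at default options; versions are not given in the sources used here. The deposited FPKM values are 1 per gene record and day over the replicates of that day, and the number of columns of single samples was 0. Groups were taken from sample titles. The deposited comparison table was used for gene names and positions, and its comparison columns (fold changes, test statistics, p-values and q-values between adjacent days, by the authors) were not used.

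From these values, log2(FPKM + 0.1) was differenced between days with Python 3.11.15, numpy 2.4.6 and pandas 2.3.3. Records with a mean under 0.1 FPKM were left out of counts, and called means at least 2-fold. The planned limma tests need single samples and were replaced by this line. The calculation was tested on simulated data. Alternatives were other pseudocounts, scaling, filters, fold lines and day 11. The 6 members and 11 gene lists (107 genes) were chosen with earlier results of these data known. Genes named were all members, up to 2 with the largest rise and 2 with the largest fall per list, the 5 coding records most like each member with a mean of at least 1 FPKM, and lincRNA records with a mean of at least 0.1 FPKM within 100 kb of a cluster. A gene that this rule would name is not reported here. Positions of lincRNA records were compared with GENCODE release 44 on hg19, and promoters came from RefSeq (GRCh38.p14).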

Additional observations from a re-analysis of the deposited data

How the results depend on the processing

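With 1 pooled value per day, no replicate could be left out and no error could be attached. No paired analysis was possible because the files hold no values of single cultures. Of the 6 members, 2 were at least 2-fold higher at day 18. This count was 1 with a pseudocount of 1 FPKM and 1 with a minimum mean of 1 FPKM. Relative to the median change it was 5 (background 18.5%), and on the TPM scale it was also 5. For the pseudocount of 1 FPKM, the minimum mean of 1 FPKM and the TPM scale, no share of coding records is available. Those counts therefore cannot be set against a background. The count of higher members was 4 at a 1.5-fold line, where 1 member was lower, against 16.2% of coding records higher and 47.0% lower. Against day 11 it was 3 (IRX3, IRX4 and IRX5, background 10.2%). The 4 steps higher became 0 with a pseudocount of 1 FPKM and 2 with a minimum mean of 1 FPKM. Without IRX5 the chromosome 16 share was 17.6% at day 0 and 30.0% at day 18. The log2 difference of the chromosome 5 sum was 0.46 relative to the median, 0.63 on the TPM scale and, with pseudocounts of 1 and 0.01 FPKM, -0.093 and -0.095. That of the chromosome 16 sum was 1.42, 1.58, 0.84 and 0.86. IRX4 depends most on the pseudocount, at 1.21 with 1 FPKM and 3.86 with 0.01 FPKM. IRX6 was at 0.55 with a pseudocount of 1 FPKM. Depth is unknown, so no detection limit can be given for IRX4 and IRX6.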
